A study of Mus musculus with 8 samples.

Results

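The 9 genes described here encode chaperones and proteases that fold, refold and degrade proteins inside mitochondria, together with 1 transcription factor that is known to switch such genes on. They were chosen by name, and each name matched 1 gene of the 54532 in the table. Hspd1, Hspe1, Trap1 and Dnaja3 are the chaperones, Lonp1, Clpp, Clpx and Afg3l2 are the proteases or protease partners, and Atf5 is the transcription factor. All 9 exceeded 1 FPKM (fragments per kilobase of gene length, scaled to the size of the library) in every library, so none was lost to the filter on low values, which kept 21175 genes.

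The series profiled RNA of spermatocytes from mice whose germ cells lack mitofusin 2 (MFN2), an outer membrane GTPase that drives mitochondrial fusion. The MFN2 WT animals carried Mfn2 loxp/loxp and the MFN2 cKO animals carried Mfn2 loxp/loxp with Stra8-Cre, all on C57BL/6J, so the controls also have the loxP sites. Pachytene (P) and leptotene/zygotene (L/Z) spermatocytes were collected at postnatal day (PD) 24 and PD 52 from each genotype. This gives 8 groups with 1 library each and no replicate of any group, at 14340665 to 20379950 reads on genes per library. Cells were separated by sedimentation in a BSA gradient and judged by size and shape. Stra8-Cre acts in germ cells only, so somatic cells that came through the gradient keep Mfn2. The study's methods count Mfn2 fl/+ littermates among the WT controls as well, whereas the sample labels give loxp/loxp only.

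Proteins enter mitochondria unfolded. In the matrix the HSP70 system with its J-domain partner DNAJA3 takes over the chain, the barrel of HSPD1 (HSP60) with its lid HSPE1 (HSP10) gives it a closed space to fold in, and TRAP1 is the HSP90 of the organelle. Chains that fail are degraded in the matrix by LONP1 and by CLPP, a peptidase chamber fed by the unfoldase CLPX, and in the inner membrane by AFG3L2, which forms rings alone or with SPG7. When misfolded protein builds up, ATF5 and related factors raise chaperone and protease genes, a response called the mitochondrial unfolded protein response. Meiotic prophase is a time of change in mitochondrial form and number in male germ cells.

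Hspd1 and Hspe1 lie head to head on chromosome 1, and the space between them is shown because members of the set share a motif there. In the GENCODE annotation on GRCm38, transcript Hspd1-201 starts at 55088024 and runs on the minus strand, and Hspe1-201 starts at 55088132 on the plus strand, with 107 bases between the starts. Of the RefSeq promoter windows (build GRCm38.p6, 250 bases before to 50 after a start), 10 matched 8 of the 9 genes, and Afg3l2 had none. A heat shock element in its textbook form, inverted 3-base units with 2 bases between them, was searched on both strands as TTCNNGAANNTTC and GAANNTTCNNGAA. It was present in 198 of 32851 promoter windows (0.603%), and among the 9 genes in windows of Hspd1 and Hspe1 only. The 4-unit form, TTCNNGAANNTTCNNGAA or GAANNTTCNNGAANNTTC, which contains the 3-unit form, was present in 8 of all windows (0.0243%), among them 1 of the 2 Hspd1 windows and the Hspe1 window. These windows overlap and hold the same copy. The stretch is given on the plus strand at chr1:55088053-55088082, with the 4 units in capitals.

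Hspd1 and Hspe1 promoter: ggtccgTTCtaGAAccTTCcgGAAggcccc

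The element covers 55088059 to 55088076, beginning 35 bases upstream of the start of Hspd1-201 and ending 56 bases before the start of Hspe1-201. All 30 printed bases also lie in exons of 2 other Hspd1 transcripts, Hspd1-202 and Hspd1-203, which begin farther upstream, at 55088243. A match of letters describes the sequence and does not show that a factor binds there.

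The labels were checked first. Mfn2 was at 62.2 to 97.5 FPKM in the 4 WT libraries and 34.3 to 50.1 FPKM in the 4 cKO libraries, which did not overlap. In cKO it was at 41.8% to 51.3% of the WT level in 3 pairs and at 80.5% in P at PD 52. Its fitted change was -0.87 ± 0.19 on the log2 scale (SE), with an adjusted p of 0.275 (limma). The stage labels were less clear in the summed markers. The 9 markers of leptotene and zygotene spermatocytes summed to 260 to 359 FPKM in the P libraries and to 135 to 266 in the L/Z libraries. Their sum was not higher in L/Z in any of the 4 pairs. Single markers were split. Dmc1 and Prdm9 were higher in L/Z in all 4 pairs. Meiob, Sycp2, Sycp3, Hormad1 and Meioc were higher in P in all 4, and Sycp1 and Rad51ap2 had no constant direction. The 9 pachytene markers summed to 3180 to 4895 FPKM in P and 2657 to 4622 in L/Z, which overlapped. Within this list Piwil1 was at 168 to 278 FPKM in P and 16.0 to 40.6 in L/Z. Tdrd1 was at 51.9 to 86.9 in P and 9.34 to 17.8 in L/Z. Pgk2, Spag6 and Ccna1 were higher in L/Z in all 4 pairs, and Hist1h1t, Ldhc, Ybx2 and Spdya had no constant direction. Both L/Z libraries at PD 52 stood apart, with 10 spermatid markers summing to 10040 (WT) and 18910 FPKM (cKO), against 96.6 to 4504 in the other 6 libraries. The 10 Sertoli cell markers summed to 17.4 to 173 FPKM in L/Z and 141 to 504 in P libraries, and the 8 Leydig cell markers to 20.7 to 261 FPKM in WT and 102 to 666 in cKO libraries. None of the markers of these 5 lists was at 0 in any library. The 5 peritubular myoid cell markers summed to 5.11 to 32.5 FPKM in P and 46.5 to 160 in L/Z, which did not overlap. The 8 macrophage markers summed to more in L/Z than in P in all 4 pairs. They also summed to more in cKO than in WT in all 4, at 6.27 to 58.7 FPKM in WT and 21.4 to 275 in cKO. Their part in the results below was not tested, and stage and age are therefore given with and without the L/Z libraries at PD 52. In such bulk samples, fewer cells of a type and less RNA per cell cannot be told apart.

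**Figure D1:**
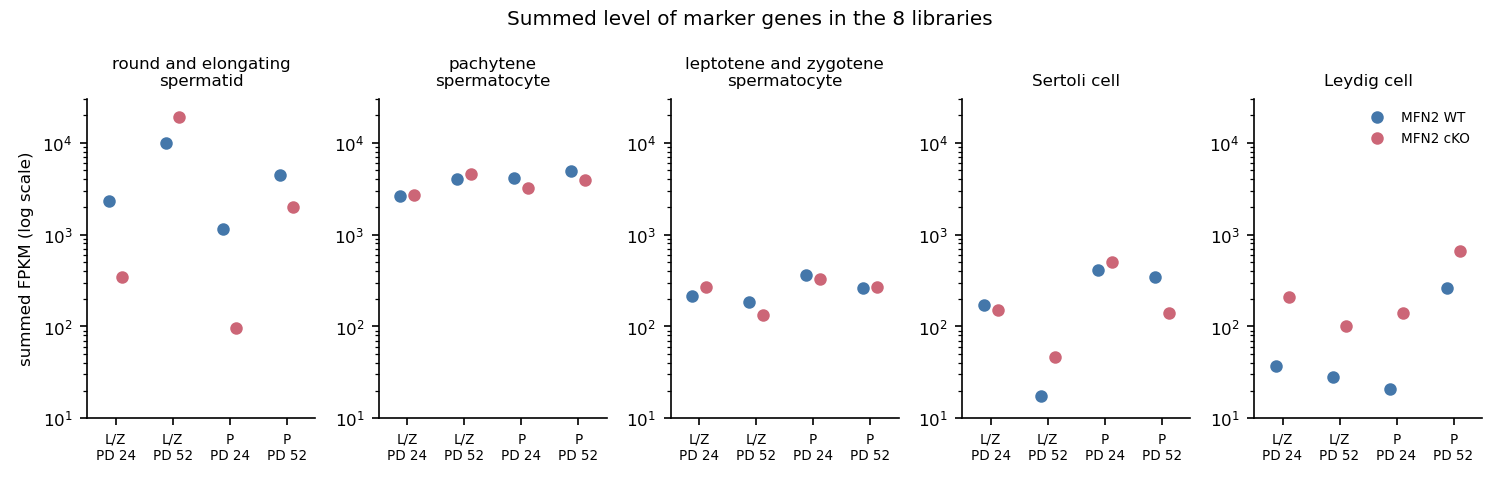
Summed FPKM (log axis) of 5 fixed marker lists in the 8 libraries, by stage and age on the horizontal axis, with WT in blue and cKO in red. Each point is 1 library. The spermatid markers peak at PD 52 in the L/Z pair (10040 and 18910 FPKM). The sum of the leptotene and zygotene markers is no higher in L/Z than in P, although single markers of that list are split.

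FPKM is scaled by the gene length given with the data, which can differ from that of a transcript. For Hspe1 it was 1474 bases against 964 in its longest transcript, and for Afg3l2 3085 against 4664. The order of levels between genes is therefore approximate. Over the 8 libraries Clpx had a mean of 54.9 FPKM (SD 20.4, n = 8 libraries of different groups) and Trap1 48.7 (SD 8.67). Then came Hspd1 at 23.9 (SD 11.8), Afg3l2 at 23.7 (SD 5.07) and Hspe1 at 22.7 (SD 10.5). Dnaja3 was at 13.5 (SD 1.76), Lonp1 at 10.2 (SD 3.67), Clpp at 10.2 (SD 3.75) and Atf5 at 7.29 (SD 2.56). The 9 genes thus formed an upper pair, a middle group and a lower group, and several neighbours in the order did not differ beyond their spread. Clpx exceeded Trap1 in 4 of 8 libraries, Hspd1 exceeded Afg3l2 in 2, Afg3l2 exceeded Hspe1 in 4, Lonp1 exceeded Clpp in 4 and Clpp exceeded Atf5 in 5. Trap1 exceeded Hspd1 in 7 of 8 libraries, Hspe1 exceeded Dnaja3 in 7, and Dnaja3 exceeded Lonp1 in 6. Among 14059 protein-coding genes above 1 FPKM in some library, Clpx had a higher mean than 92.2% and Atf5 a higher mean than 55.9%.

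The genes also differed in how steady they were. Dnaja3, the J-domain partner of mitochondrial HSP70, varied least, from 10.9 to 16.5 FPKM (1.51-fold), and Trap1 ranged 1.62-fold. Hspd1 varied most, 3.96-fold, followed by Hspe1 at 3.69-fold and Lonp1 at 3.03-fold. Hspd1 had its highest level, 47.7 FPKM, in the L/Z cKO library at PD 24 and its lowest, 12.04 FPKM, in the L/Z cKO library at PD 52. Hspe1, Clpp and Hspd1 all peaked in that same L/Z cKO library at PD 24.

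**Figure D2:**
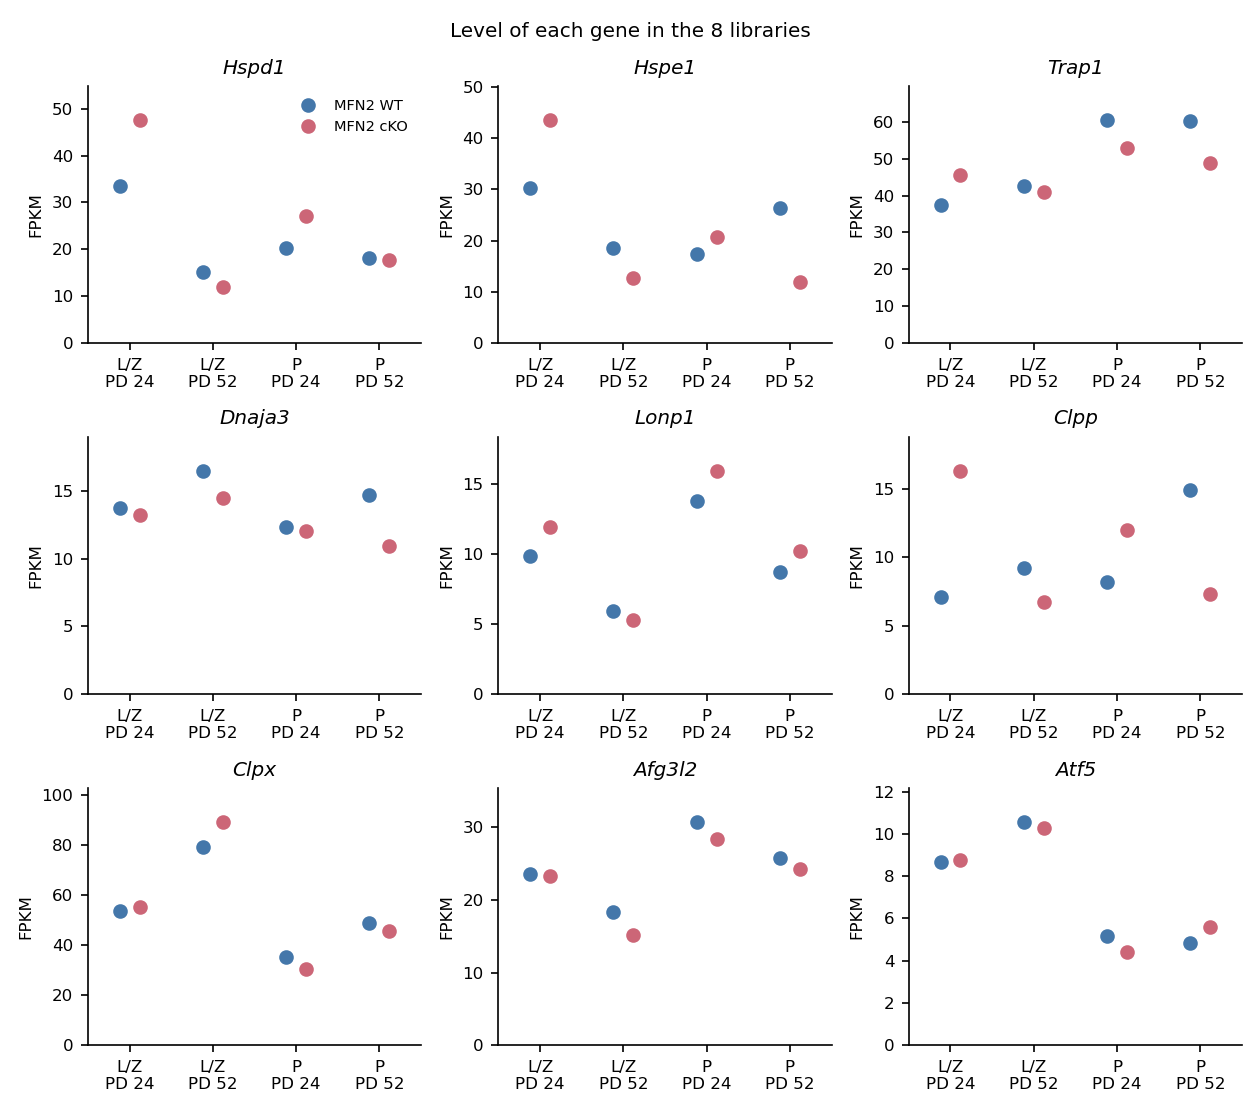
FPKM of the 9 genes, 1 point per library, with stage and age on the horizontal axis, WT in blue and cKO in red, and each vertical axis starting at 0. Clpx and Atf5 are lower in all P than in all L/Z libraries, Trap1 and Afg3l2 are higher, and Hspd1 is lower in all PD 52 libraries.

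The first comparison asks how the 2 meiotic stages differ. Atf5 and Clpx were lower in P than in L/Z spermatocytes, and Lonp1 was higher, each in all 4 pairs of libraries that share genotype and age. The summed spermatid, peritubular myoid cell and macrophage markers were lower in P in the same 4 pairs. The summed Sertoli cell markers and the summed leptotene and zygotene markers were higher in P in all 4. The part of these cells in the values was not tested. Trap1 and Afg3l2 were also higher in all 4 pairs but did not pass the test, and Hspd1, Hspe1 and Clpp had no constant direction. The test, limma on log2(FPKM + 1) with the pair as a block, called 3 of 9 members, beside 28.4% of all genes tested (12.4% higher and 16.0% lower in P). The share of members is thus near that of all genes. Changes on this scale understate those of low genes.

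Atf5, the transcription factor, was at 8.66 and 8.77 FPKM in L/Z WT and cKO at PD 24 and at 10.6 and 10.3 at PD 52. In P it was at 5.15 and 4.42 FPKM at PD 24 and at 4.82 and 5.6 at PD 52. All P libraries were below all L/Z libraries, and P libraries held 45.5% to 59.5% of the paired L/Z level. The log2 change was -0.82 ± 0.14 (SE, adjusted p = 0.00698), and it stayed past the threshold in all 13 alternatives, with adjusted p from 0.00369 to 0.0380.

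Clpx, the unfoldase that feeds CLPP, was at 53.8 and 55.5 FPKM in L/Z WT and cKO at PD 24 and at 79.4 and 89.6 at PD 52. In P it was at 35.3 and 30.6 FPKM at PD 24 and at 49.0 and 45.7 at PD 52. Again the highest P library was below the lowest L/Z library, and P held 51.1% to 65.6% of the paired L/Z level. The log2 change was -0.77 ± 0.15 (SE, adjusted p = 0.0106). It was called in 12 of 13 alternatives, and without the cKO pair at PD 52 the adjusted p was 0.0575, in a range of 0.00246 to 0.0575.

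Lonp1, the AAA+ protease of the matrix, went the other way. It was at 9.89 and 11.96 FPKM in L/Z WT and cKO at PD 24 and at 5.94 and 5.27 at PD 52. In P it was at 13.8 and 15.99 FPKM at PD 24 and at 8.72 and 10.2 at PD 52, which is 1.34 to 1.94 times the paired L/Z level. The ranges of the 2 stages overlapped because age moved Lonp1 as well. The log2 change was 0.54 ± 0.15 (SE, adjusted p = 0.0328), and 8 of 13 alternatives called it, with adjusted p from 0.0209 to 0.128. It was not called with no FPKM filter (0.0597), without the WT pair at PD 24 (0.113), the cKO pair at PD 24 (0.0605) or the cKO pair at PD 52 (0.128).

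Trap1 was at 48.8 to 60.7 FPKM in P and 37.4 to 45.7 in L/Z, and Afg3l2 at 24.3 to 30.8 in P and 15.1 to 23.6 in L/Z. Neither pair of ranges overlapped, but both missed the threshold, Afg3l2 with 0.44 ± 0.15 (adjusted p = 0.0584) and Trap1 with 0.41 ± 0.16 (adjusted p = 0.0937). Afg3l2 was called in 3 of 13 alternatives, over protein-coding genes only, by voom and with no pair block, with adjusted p from 0.0434 to 0.295. With Atf5 and Clpx, 4 of 9 members had P and L/Z libraries that did not overlap, beside 15.7% of all genes tested. Dnaja3 was lower in P in all 4 pairs, with a counting interval that left out 0 in each, and its fitted change was -0.20 (95% interval -0.53 to 0.12). Clpp changed by 0.13 (-0.32 to 0.58).

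Leaving out both L/Z libraries at PD 52 keeps the 2 pairs at PD 24 and altered which chaperone genes were called. The fit of those pairs called 6220 of 18997 genes tested, 2946 higher and 3274 lower in P. In those pairs Hspd1 was at 20.2 (P) against 33.5 FPKM (L/Z) in WT and 27.2 against 47.7 in cKO, and Hspe1 at 17.4 against 30.3 and 20.6 against 43.6. Both partners of the folding chamber were then called lower in P, Hspd1 by -0.74 (adjusted p = 0.0256) and Hspe1 by -0.91 (adjusted p = 0.00842), with Atf5 and Clpx still called and Lonp1 not (0.42, adjusted p = 0.127). Over all their alternatives the adjusted p ranged from 0.0256 to 0.990 for Hspd1 and from 0.00842 to 0.738 for Hspe1. With all 8 libraries the changes were -0.18 ± 0.25 for Hspd1 (adjusted p = 0.611) and -0.36 ± 0.26 for Hspe1 (adjusted p = 0.325). At PD 52 Hspd1 was higher in P than in L/Z in both genotypes, 18.1 against 15.1 FPKM in WT and 17.7 against 12.04 in cKO.

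Counted pair by pair on the log2(FPKM + 1) scale, few members differed by 2-fold between stages. None did in WT at PD 24, beside 16.3% of genes, or in WT at PD 52, beside 20.2%, where Atf5 came closest at -0.995 (154 reads against 316, or 45.5% of the L/Z level in plain FPKM). In cKO at PD 24 Hspe1 was at least 2-fold lower in P, with 565 reads against 1141, beside 20.0% of genes, and none reached 2-fold in cKO at PD 52, beside 24.7%. A pair of libraries gives no replicate check, and intervals from its reads cover counting error only.

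The second comparison asks how spermatocytes of the same label differ between the first wave of spermatogenesis and the adult testis. From PD 24 to PD 52 Lonp1 fell and Clpx rose in all 4 pairs that share stage and genotype. Hspd1 was also lower at PD 52 in all 4 pairs, and Hspe1 in 3 of 4, without passing the test. The fit called 2 of 9 members, beside 17.3% of all genes (11.9% higher and 5.41% lower at PD 52). Without the L/Z libraries at PD 52 it called none of the members, beside 934 of 18669 genes. It then gave none of them an unadjusted p under 0.05, beside 3297 of those genes.

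Lonp1 at PD 52 held 44.1% to 63.9% of its paired PD 24 level, a log2 change of -0.73 ± 0.15 (SE, adjusted p = 0.0264). Clpx at PD 52 was at 1.39 to 1.61 times its PD 24 level, a change of 0.57 ± 0.12 (adjusted p = 0.0301). Each was called in 8 of 13 alternatives, with adjusted p from 0.0146 to 0.326 for Lonp1 and from 0.0220 to 0.415 for Clpx. In the P pairs alone the changes were close to these, -0.60 and 0.51, with adjusted p of 0.326 and 0.415 on 2 pairs. Neither was called with no FPKM filter (0.0585 and 0.0583). Nor was either called once the P cKO, the L/Z WT or the L/Z cKO pair was left out, with adjusted p of 0.119, 0.101 and 0.0667 for Lonp1 and 0.153, 0.129 and 0.0904 for Clpx. The summed spermatid markers rose with age in every pair that shares stage and genotype, from 96.6 to 2298 FPKM at PD 24 to 2011 to 18910 at PD 52. The summed pachytene markers also rose in every such pair. The summed Sertoli cell, peritubular myoid cell, and leptotene and zygotene markers fell in every such pair. The part of these cells in the values was not tested.

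Hspd1 was at 20.2 and 27.2 FPKM in P WT and cKO at PD 24 and at 18.1 and 17.7 at PD 52. In L/Z it went from 33.5 to 15.1 FPKM in WT and from 47.7 to 12.04 in cKO. It was the only member whose PD 24 and PD 52 libraries did not overlap, beside 13.4% of all genes. The change was -0.94 ± 0.29 (SE, adjusted p = 0.0714). It was called in 3 of 13 alternatives, among them without the P WT pair (-1.20, adjusted p = 0.0384), and the adjusted p ranged up to 0.571, its value in the P pairs alone (-0.37).

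Its partner Hspe1 fell from 30.3 to 18.6 FPKM in the L/Z WT pair and from 43.6 to 12.8 in the L/Z cKO pair, and was at 20.6 and 11.8 FPKM in the P cKO pair, but was at 17.4 and 26.3 in the P WT pair. The change over the 4 pairs was -0.64 ± 0.35 (adjusted p = 0.222), and without the P WT pair it was -1.04 (adjusted p = 0.0403, in a range of 0.0403 to 0.916). The library of P WT at PD 52 thus set apart Hspe1 from Hspd1. Afg3l2 was lower at PD 52 in all 4 pairs, by -0.35 ± 0.14 (adjusted p = 0.120).

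Atf5 changed by 0.17 ± 0.14 with age (adjusted p = 0.404), Dnaja3 by 0.12 ± 0.14 (0.556), Trap1 by -0.02 ± 0.13 (0.907) and Clpp by -0.17 ± 0.34 (0.728). For Trap1 the sign turned to 0.07 when libraries were rescaled on protein-coding genes, a rescaling that moved the median change of all genes in the L/Z cKO pair from 0.01 to 0.16. The 95% interval for Clpp, -0.98 to 0.64, was the widest of these.

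The drop was largest in the L/Z cKO pair, where 4 of 9 members were at least 2-fold lower at PD 52, beside 31.5% of all genes changed that much in either direction. These were Hspd1 (25.3% of the PD 24 level), Hspe1 (29.3%), Lonp1 (44.1%) and Clpp, which went from 16.3 to 6.71 FPKM. In the L/Z WT pair Hspd1 alone was at least 2-fold lower (45.0% of the PD 24 level), beside 13.3% of genes. None of the 9 reached 2-fold in the P WT pair, beside 14.6%, or the P cKO pair, beside 18.9%.

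**Figure D3:**
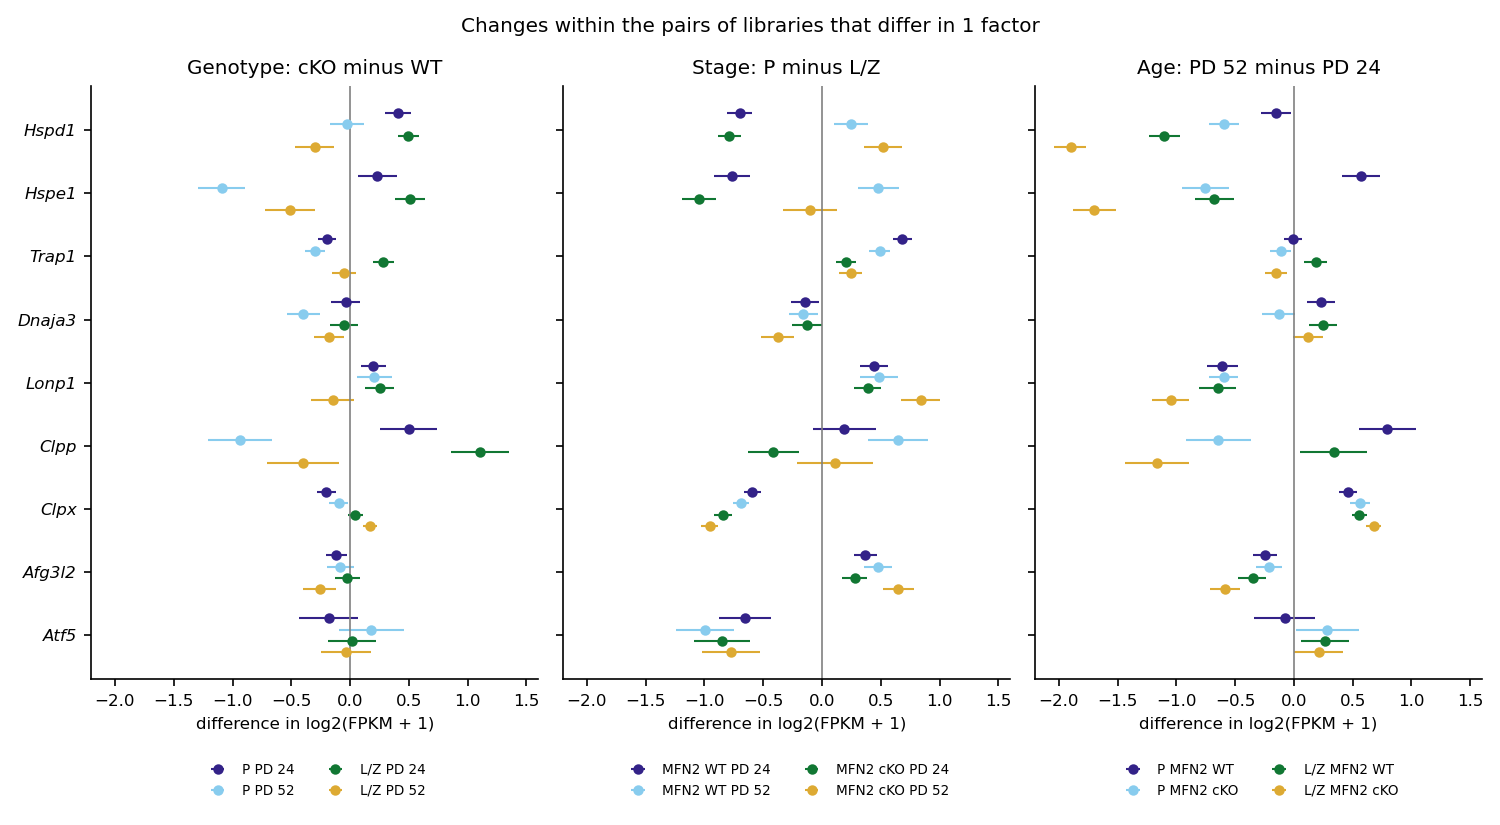
Difference in log2(FPKM + 1) of the 9 genes within each of 12 pairs of libraries that differ in 1 factor, with 95% intervals that cover counting error only. Points to the right of 0 are higher in cKO, in P or at PD 52. The 4 pairs lie on 1 side of 0 for Atf5, Clpx, Lonp1, Trap1, Afg3l2 and Dnaja3 in stage, while for Clpp and Hspe1 in genotype they lie on both sides.

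**Figure D4:**
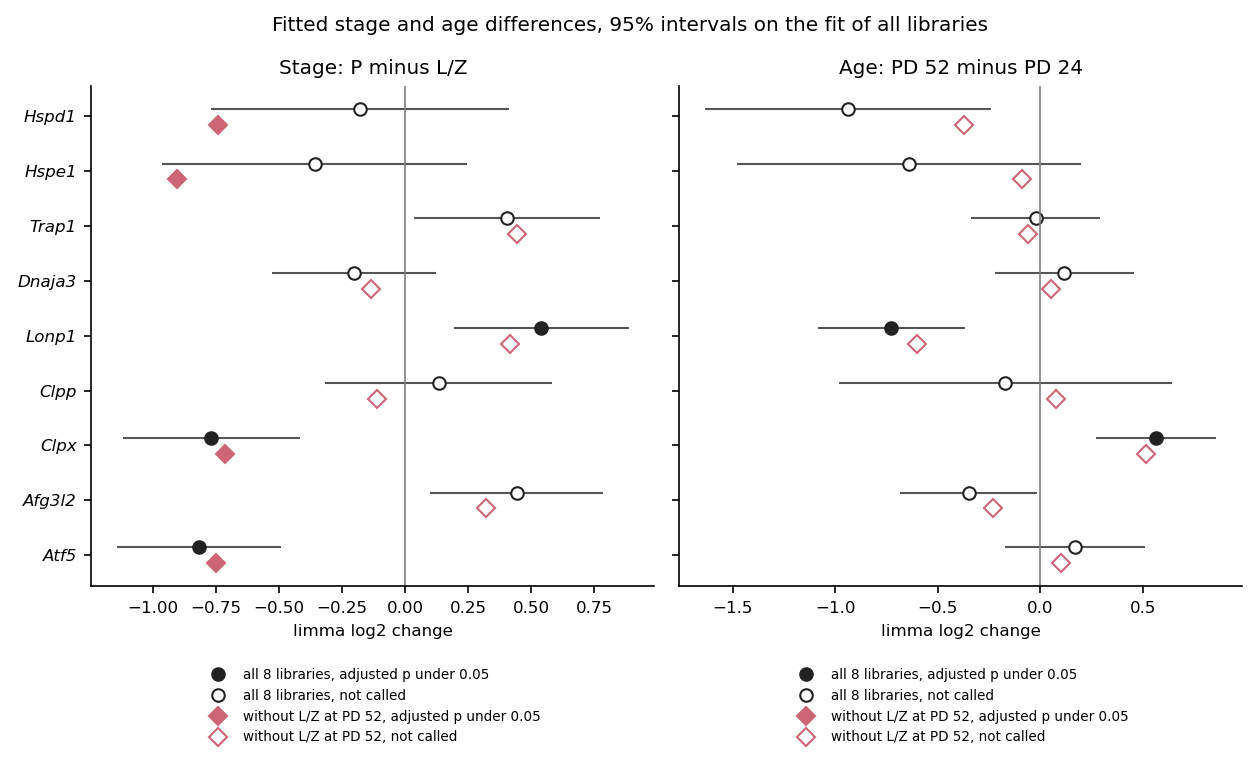
Fitted log2 changes by stage (left) and age (right), from all 8 libraries (circles, with 95% intervals of the fit) and without the L/Z libraries at PD 52 (diamonds); filled symbols mark an adjusted p under 0.05. Hspd1 and Hspe1 move to -0.74 and -0.91 in stage when those libraries are left out, and no gene stays called in age.

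The third comparison asks whether loss of MFN2 changed these genes. None of the 9 was called, beside 0.137% of all genes (29 of 21175). None of the 9 had an unadjusted p under 0.05, beside 1467 of the 21175 genes. Adjusted p values ran from 0.883 to 0.999, and none of the 9 was called in any of 12 alternatives, limma voom on recovered reads included. No member had 4 cKO libraries clear of the 4 WT libraries, beside 0.911% of genes. The fitted changes lay between -0.21 ± 0.28 for Hspe1 and 0.14 ± 0.19 for Hspd1. Their 95% intervals reached from -0.88 for Hspe1 to 0.86 for Clpp, so changes approaching 2-fold lay inside the intervals of these 2 genes. In simulated data this fit called 0 of 200 genes with a true log2 change of 1. The lack of calls alone therefore does not exclude changes of that size. For Atf5 the estimate was -0.00 (95% interval -0.34 to 0.33) and for Clpx -0.02 (-0.38 to 0.34).

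Dnaja3 and Afg3l2 were lower in cKO in all 4 pairs, Dnaja3 by 0.04 to 0.40 and Afg3l2 by 0.02 to 0.26 on the log2 scale, and for each the counting interval left out 0 in 2 of the 4. The fits gave -0.17 ± 0.15 for Dnaja3 (adjusted p = 0.883) and -0.12 ± 0.14 for Afg3l2 (adjusted p = 0.930). Lonp1 was higher in cKO in 3 of 4 pairs and lower in the L/Z pair at PD 52 (5.27 against 5.94 FPKM).

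On the log2(FPKM + 1) scale, 1 member reached 2-fold in each of 2 single pairs. Clpp was 2.31-fold higher in L/Z cKO at PD 24, with 354 reads against 163, beside 10.5% of genes, and Hspe1 in P at PD 52, the pair with the smallest Mfn2 difference, was at 45.0% of the WT level, with 253 reads against 622, beside 11.0% of genes. In that same P pair Clpp was at 49.0% of the WT level in plain FPKM (130 reads against 293) and at -0.94 on the log2(FPKM + 1) scale. No member reached 2-fold in P at PD 24, beside 8.08%, or in L/Z at PD 52, beside 7.95%. Hspd1, Hspe1 and Clpp were higher in cKO in both pairs at PD 24 and lower in both pairs at PD 52, although for Hspd1 in P at PD 52 the interval held 0 (-0.17 to 0.12).

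Clpp went from 7.05 (WT) to 16.3 FPKM (cKO) in L/Z and from 8.19 to 12 in P at PD 24. At PD 52 it was at 9.18 and 6.71 FPKM in L/Z and at 14.9 and 7.32 in P. The sign of the difference thus turned with age in both stages. The interaction of genotype and age was -1.47 ± 0.35 for Clpp (adjusted p = 0.188), -1.17 ± 0.33 for Hspe1 (adjusted p = 0.246) and -0.62 ± 0.29 for Hspd1 (adjusted p = 0.451). The interaction fit called none of the 9, beside 0.0142% of all genes (3 of 21175). An unadjusted p under 0.05 was found for 2 members, Clpp and Hspe1, beside 2641 of the 21175 genes. Over 8 alternatives the adjusted p ranged from 0.0607 to 0.493 for Clpp and from 0.0916 to 0.515 for Hspe1, and none called either.

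The interaction of genotype and stage called none of the 9 and no gene at all (0.0% of 21175, with 876 genes at an unadjusted p under 0.05, none of them among the 9). The genotype, stage and age fits use the same 8 libraries, so their results are not independent of each other.

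Partners of a complex can be compared within a library as a ratio of FPKM. The size of such a ratio depends on the gene lengths used, and its change between libraries does not. Hspd1 to Hspe1, chamber to lid, lay between 1.09 and 1.32 in the 4 libraries at PD 24 and between 0.687 and 1.497 at PD 52. Its extremes were both in P at PD 52, with 0.687 (95% interval 0.617 to 0.765) in WT and 1.497 (1.29 to 1.74) in cKO. The balance of the 2 genes was thus less even at PD 52.

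Clpx to Clpp, unfoldase to peptidase, varied more, from 2.55 to 13.3. It was above 1 in every library, 7.62 and 3.4 in L/Z WT and cKO at PD 24 and 8.66 and 13.3 at PD 52. In P it was 4.31 and 2.55 at PD 24 and 3.28 and 6.24 at PD 52. The ratio was lower in cKO than in WT at PD 24 and higher at PD 52, in both stages, with no interval of a cKO library overlapping that of its WT partner. Afg3l2 to Spg7, subunits of the same inner membrane protease, lay within 0.671 and 1.24. All 4 libraries at PD 24 were between 1.02 and 1.24 and all 4 at PD 52 between 0.671 and 0.937.

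**Figure D5:**
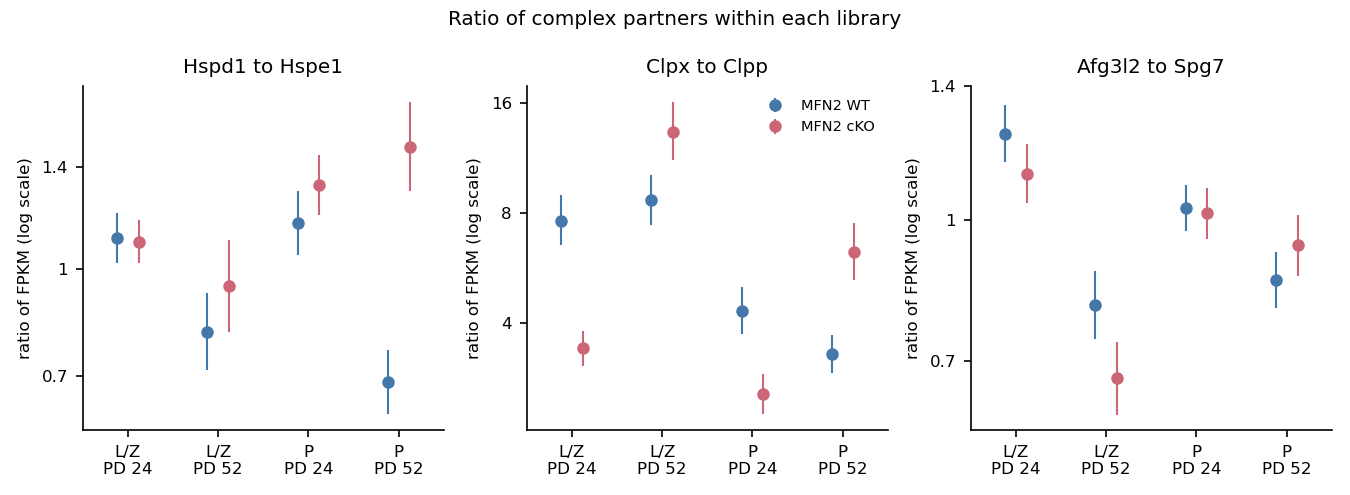
Ratio of FPKM of complex partners within each library (log axis), with 95% intervals that cover counting error only, WT in blue and cKO in red. Clpx to Clpp spans 2.55 to 13.3, while Hspd1 to Hspe1 and Afg3l2 to Spg7 stay between 0.671 and 1.497.

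A wider list of 36 genes of mitochondrial protein quality control, all of them tested, was read beside the 9. By genotype none of the 36 was called, and their median change was -0.06, beside -0.04 for all genes and -0.02 for the 9. The outermost changes were those of Clpb (-0.63, adjusted p = 0.633), Mipep (-0.34, 0.794), Atf4 (0.28, 0.832) and Cebpb (1.20 ± 0.25, 0.238). Clpb encodes a disaggregase of the intermembrane space, and Cebpb a transcription factor of inflammation and stress. The summed macrophage markers were higher in cKO in all 4 pairs, and their part in the value of Cebpb was not tested.

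By stage 4 of the 36 were higher and 3 lower in P, beside 12.4% and 16.0% of all genes. Of 10 proteases, Lactb (1.26 ± 0.27, adjusted p = 0.0146) and Htra2 (0.52 ± 0.14, 0.0302) were higher and Yme1l1, the inner membrane protease that faces the intermembrane space, was lower (-0.54 ± 0.15, 0.0333). Of 5 genes of presequence and peptide processing, Pitrm1, which degrades cleaved presequences, was higher (0.64 ± 0.13, 0.0123) and Mipep lower (-0.68 ± 0.19, 0.0323). Of 8 other chaperones Clpb was lower (-1.15 ± 0.20, 0.00787), and of 10 stress regulators Dele1, which relays mitochondrial stress to the cytosol, was higher (0.80 ± 0.15, 0.0101). None of 3 inner membrane scaffold genes was called. The median of the 36 was 0.05 and that of the 9 was -0.18, beside -0.04 for all genes.

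By age 3 of the 36 were higher and 3 lower at PD 52, beside 11.9% and 5.41% of all genes. Clpb (1.74 ± 0.23, adjusted p = 0.0145), Mipep (1.14 ± 0.19, 0.0171) and Dnajc15, a J-protein of the import motor (0.62 ± 0.13, 0.0313), rose. Pitrm1 (-1.24 ± 0.13, 0.0144), Atf4, the main transcription factor of the integrated stress response (-0.78 ± 0.20, 0.0447), and Eif2ak4, the kinase GCN2 (-0.61 ± 0.14, 0.0356), fell. Medians were 0.03 for the 36, -0.17 for the 9 and 0.00 for all genes. Without the L/Z libraries at PD 52, Clpb and Pitrm1 were the members of the wider list called by age, beside 934 of 18669 genes. By stage 4 of the 36 were then higher and 4 lower, beside 2946 and 3274 of 18997 genes.

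In neither interaction was any of the 36 called. By genotype and age the lowest were Immp1l (-1.15, adjusted p = 0.303) and Stoml2 (-1.07, 0.259) and the highest Mipep (0.48, 0.627) and Clpb (0.69, 0.506). By genotype and stage the lowest were Cebpb (-1.03, 0.972) and Ubl5 (-0.80, 0.972) and the highest Eif2ak2 (0.37, 0.973) and Eif2ak4 (0.48, 0.972).

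Profiles across the 8 libraries were compared by the root-mean-square difference of centred log2(FPKM + 1) values among 5067 protein-coding genes with a mean above 10 FPKM and the 9 themselves. As a description over 8 libraries that differ in stage, age and cell content, the nearest genes were Calu, Etfa and Ncl for Hspd1 (0.17 to 0.19 log2 units, where its own spread was 0.58) and Ppp1ca, Arf2 and Selenoh for Hspe1 (0.15 to 0.17). For Trap1 they were Memo1, Fbxw9 and Wipi2 (0.04 to 0.05), and for Dnaja3 Klc4, Rnf185 and Mcm7 (0.06 to 0.09). For Lonp1 they were Nfe2l1, Clic4 and Acly (0.09 to 0.10), and for Clpp Psma5, Tsr3 and Mrpl28 (0.17 to 0.18). For Clpx they were Mtdh, Fem1b and Fam76a (0.06 to 0.08), for Afg3l2 Elac2, Srp68 and Ncln (0.07 to 0.08), and for Atf5 Cdc25a, Zmym4 and Cul4b (0.10 to 0.12).

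No member was among the 3 nearest of another. Afg3l2 and Trap1 were the closest of the members (0.21), then Atf5 and Clpx (0.22), Afg3l2 and Lonp1 (0.23) and Hspd1 and Hspe1 (0.33). Hspd1 ranked 85th in nearness to Hspe1, and Hspe1 ranked 63rd in nearness to Hspd1. Clpx and Clpp, partners in 1 protease, were farther apart (0.725).

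The genes lie on 6 chromosomes of GRCm38. Hspd1 (chr1:55077835-55088243) and Hspe1 (chr1:55088132-55091307) share 112 exonic bases on opposite strands, 4.24% of the exons of Hspd1 and 7.60% of those of Hspe1. Trap1 (chr16:4039971-4077827) and Dnaja3 (chr16:4639989-4707695) are on chromosome 16, and Lonp1 (chr17:56614297-56626887) and Clpp (chr17:56990305-56996188) on chromosome 17. Clpx is at chr9:65294260-65330658, Afg3l2 at chr18:67404764-67449172 and Atf5 at chr7:44812256-44816658. Atf5 shares 82 exonic bases (4.11%) with Nup62 on the opposite strand, a gene at up to 95.2 FPKM, and Dnaja3 shares 153 (3.91%) with Coro7 on the opposite strand. Reads from these stretches cannot be assigned without strand, and the strand setting is not given in the sources used here. Dnaja3 also shares 160 exonic bases (4.09%) with Vasn on its own strand, where strand would not assign the reads either.

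Hspd1 has processed copies elsewhere in the genome, and its values carry that uncertainty. Of the 150-base windows of its longest transcript, 18.6% occur unchanged in Hspd1-ps3, and its 6 annotated pseudogenes together held 661 reads beside 8827 for Hspd1 (7.49%, at most 12.9% in a library). For Hspe1 the 6 pseudogenes held 28 reads beside 4627 (0.605%). No 150-base window of the other 7 members or of Hspe1 recurred in a transcript of another gene.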

How the data were processed

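RNA of 8 spermatocyte libraries was sequenced as paired reads by the authors (NEBNext Ultra kit, Illumina), and the deposited table holds FPKM per gene, made by the authors with a commercial pipeline and tested there with DESeq2. The submitters' processing notes name CASAVA 1.4, Bowtie 0.12.2, mm8 and mm9. The table's coordinates equal those of GENCODE vM21 (GRCm38) for 98.1% of its 54532 genes, and those were used. FPKM times gene length gave whole reads within 0.001 for 100.0% of values above 0, so reads were recovered for counting intervals (95%, Clopper-Pearson), which cover counting error only because PCR copies are not marked.

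Groups followed the sample titles, 1 library per group. Changes were differences of log2(FPKM + 1) in the 12 pairs that differ in 1 factor, counted at 2-fold among genes above 1 FPKM in either library. Each factor was fitted with limma 3.58.1 (R 4.3.3, eBayes with trend) over genes above 1 FPKM in at least 1 library, with the 4 pairs as blocks, and p values were adjusted by Benjamini-Hochberg over all genes tested, with 0.05 as threshold. The pairs differ in stage, age or genotype, so the error measures how alike the effect was in them. An exact sign-flip test over 4 pairs cannot go below 0.125 and was not used. The script was tested on simulated data. There the genotype fit called 0 of 200 genes with a true log2 change of 1. At a true log2 change of 2 it called 191 of 199, with 4 false calls. Alternatives were another pseudocount (0.1), no FPKM filter, median-of-ratios scalings over all and over protein-coding genes, protein-coding genes only, voom on recovered reads, no trend, no pair block, and each pair left out. The scaling on protein-coding genes and the fits without the L/Z libraries at PD 52 were added after the values were seen. The median-of-ratios factor over all genes was 1.02 in every library, so it changed little by construction.

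The 9 members, the wider list and the marker lists were chosen with earlier results of these data known. Text names the 9 members, wider-list genes that were called or otherwise the 2 highest and 2 lowest, Mfn2, the 3 nearest profiles per member, and genes that overlap a member or are its pseudogenes. Spermatogonium markers were also read and summed to 31.3 to 117 FPKM. Sequence windows came from RefSeq promoters, and figures were drawn with matplotlib 3.10.9 in Python 3.11.15.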

Additional observations from a re-analysis of the deposited data

Results flagged for a closer look

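In 3 members the sign of the difference between cKO and WT was opposite at the 2 ages in both stages. The interaction of genotype and age was -1.47 for Clpp, -1.17 for Hspe1 and -0.62 for Hspd1 on the log2 scale, and none passed the threshold (limma, adjusted p = 0.188, 0.246 and 0.451). Summed Leydig cell and macrophage markers were higher in cKO than in WT in each of the 4 pairs, and summed spermatid markers were lower in cKO in 3 pairs and higher in the L/Z pair at PD 52. Their part in these values was not tested.

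Clpx was lower in cKO in both P pairs (-0.20 and -0.10) and higher in both L/Z pairs (0.05 and 0.17). The interaction of genotype and stage was -0.26 (limma, adjusted p = 0.973), and the interval of the L/Z pair at PD 24 held 0 (-0.02 to 0.11).

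Hspd1 was lower in P than in L/Z in both pairs at PD 24 (-0.70 and -0.79) and higher in P in both pairs at PD 52 (0.25 and 0.52), a difference between ages of 1.13 on the log2 scale. This difference was not tested. The PD 52 side rests on the L/Z libraries whose spermatid markers summed to 10040 and 18910 FPKM.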

How the results depend on the processing

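Of 486 alternative values of the members' tested changes, 440 kept direction and side of the threshold, 16 fell short of it, 9 passed it and 21 changed sign. The cause was not tested, beyond the fewer pairs or more genes that a setting has. Members called by stage were 3 (1 to 3 with each pair left out, 1 without the MFN2 cKO pair at PD 52). Members called by age were 2, then 0 with no FPKM filter, 0 without the L/Z libraries at PD 52, and 0 to 4 with each pair left out, 4 without the P WT pair. With no pair block the additive model gave 4 by stage and 3 by age. None was called by genotype or in either interaction under any setting. With each pair left out, genotype changes that passed 0 ranged from -0.455 to 0.0786 for Hspe1, -0.182 to 0.0128 for Trap1, -0.279 to 0.402 for Clpp, -0.0842 to 0.0396 for Clpx and -0.0672 to 0.0539 for Atf5. Stage changes did so for Hspd1 (-0.414 to 0.0223) and Clpp (-0.0379 to 0.316), and age changes for Trap1 (-0.0913 to 0.0203) and Clpp (-0.491 to 0.163). Rescaling on protein-coding genes turned the age change of Trap1 to 0.0677. Without the L/Z libraries at PD 52, Clpp was at -0.112 by stage and 0.0755 by age, the genotype by age interaction of Clpx at -0.0196, and that of genotype by stage at -0.307 for Hspd1, -0.0492 for Lonp1, -0.0752 for Afg3l2 and -0.0158 for Atf5. Over all genes, calls by genotype were 29, and 0 to 114 in the alternatives, calls by stage 6013, and 2369 to 7604, and calls by age 3669, and 0 to 4905. With the genotype by age interaction they were 3, and 0 to 624. Members changed by 2-fold in 8 of the values for 12 pairs, and in 8 to 10 under another pseudocount or scaling. The lowest member read count was 120, for Clpp, which sets the width of its intervals.

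The blocks of the fits are pairs of libraries that share 2 of the 3 factors. The samples carry no replicate numbers, so no pairing by replicate number was made.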
